A study of Oryza sativa with 10 samples.

Results

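To explore the early response of rice seedlings to auxin, the RNA-seq libraries of seedlings sprayed with IAA were compared with those of seedlings at 24 h of light, which are 4 of the 10 libraries of the series. All seedlings were of the indica cultivar YD6 and were germinated in the dark for 3 d. The IAA group was exposed to light for 23 h and 30 min and then sprayed with 100 μM IAA in 1% DMSO for 30 min (2 libraries), and the 24 h group was kept under light for 24 h (2 libraries). Further libraries, 2 for each condition, came from seedlings sprayed with 100 μM ABA in the same solvent, and from seedlings at 0 h (in the dark) and 8 h of light. A spray with only DMSO is described too, but the labels do not state whether the 24 h libraries received it, so that an effect of the spray itself cannot be told apart from that of IAA in the comparison with 24 h, and IAA is therefore also compared with ABA. The labels do not state whether the 2 replicates of a condition came from separate cultures, and the p-values measure the spread between these libraries.

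IAA is the main natural auxin of plants. Auxin is perceived by F-box receptors that direct the Aux/IAA repressors to degradation, which releases the auxin response factors at their target promoters, so that primary auxin genes such as those of the Aux/IAA, GH3 and SAUR families can respond within minutes. In grass seedlings, auxin is best known for driving the elongation of the coleoptile, the sheath that carries the shoot through the dark soil, and this growth stops as the seedling turns green in the light. The comparison thus has 2 questions, namely which genes changed within 30 min of IAA, and whether they were moved back towards their dark level.

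The deposited values are FPKM, which scale the fragments of a gene by gene length and by library total. Here 2282 genes of chromosome 1 were read (MSU7.0 gene models, the last ending at position 21262392). Of these, 1092 passed a minimum of 1 FPKM in the mean over all 10 libraries and were tested, on log2(FPKM + 1), a scale that understates the change of low genes. The table lists genes by locus ID with no name, and 0 of the 2282 IDs matched the RefSeq gene table, so that the auxin gene families could not be read by name. Auxin loci known by ID were not read as a group either. Among the genes read here, names are used for GLK2 and OsbZIP1, whose IDs come from the study. GLK2, an activator of chloroplast development that marks greening tissue, was present in all 10 libraries at between 20.2 and 36.3 FPKM. The sequencing depth is unknown. The 24 h libraries lay farther apart from each other (Euclidean distance 7.82 on log2(FPKM + 1) over the tested genes) than the IAA libraries (5.37), whereas an IAA and a 24 h library were 14.4 to 18.1 apart.

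Within 30 min of the IAA spray, transcripts changed mainly upwards. Of the 1092 tested genes, 51 were called higher and 1 was called lower with IAA than at 24 h, at a change of 2-fold or more and an adjusted p under 0.01 (limma with Benjamini-Hochberg adjustment over all tested genes). The called share was 4.67% for higher and 0.0916% for lower genes. Most changes were moderate, since the median log2 change of the raised genes was 1.27 and 11 genes reached 3-fold. All 51 raised genes had both IAA libraries above both 24 h libraries, as did 559 of the 1092 tested genes (51.2%). The median of all tested genes was itself 0.13 higher on the log2 scale with IAA than at 24 h. Median-of-ratios scaling, which sets the typical gene to no change, left 36 genes higher (3.3%) and gave 6 lower (0.549%), and all 36 were among the 51.

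LOC_Os01g09220 (plus strand of chromosome 1, 4646427 to 4648260) rose most. Its level was 10.4 and 10.7 FPKM with IAA, against 0.836 and 1.15 FPKM at 24 h. It was 1.58 and 1.97 FPKM with ABA, 13.9 and 13.3 FPKM at 0 h, and 0.592 and 0.862 FPKM at 8 h. Both IAA libraries thus lay far above those at 8 h, at 24 h and with ABA, and somewhat below both dark libraries. The log2 change was 2.53 against 24 h (SE 0.122, limma adjusted p = 2.72e-08) and 2.06 against ABA (SE 0.122, limma adjusted p = 2.16e-07). Against 0 h it was -0.34 (SE 0.122, limma adjusted p = 2.58e-02), which did not pass 0.01.

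LOC_Os01g28790 (plus strand, 16130515 to 16131447) had a similar profile at a higher level. It was at 30.9 and 30.7 FPKM with IAA, against 6.12 and 4.60 FPKM at 24 h, 11.7 and 11.1 FPKM with ABA, and 33.7 and 34.3 FPKM at 0 h. The level at 8 h was 5.53 and 4.98 FPKM, so that the gene was low throughout the light course and came close to its dark level with IAA. The log2 change was 2.33 against 24 h (SE 0.10, limma adjusted p = 2.26e-08) and 1.36 against ABA (SE 0.10, limma adjusted p = 6.39e-07). Against 0 h it was -0.14 (SE 0.10, limma adjusted p = 2.43e-01). ABA was itself above 24 h, with a log2 change of 0.98 (SE 0.10, limma adjusted p = 1.82e-05), just under 2-fold. With median-of-ratios scaling that change was 1.11 and was called.

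Not every raised gene was a dark gene. LOC_Os01g28500 (minus strand, 15958735 to 15959500) showed the largest rise among the genes called in neither 8 h nor 24 h against 0 h, and it was picked out after the values were seen. With IAA it was at 58.4 and 57.9 FPKM, against 13.3 and 15.7 FPKM at 24 h, and the highest of the 8 libraries without IAA, an ABA library, was at 23.1 FPKM. The libraries at 0 h were at 19.5 and 19.1 FPKM, and those at 8 h at 17.1 and 16.7 FPKM. The gene thus stayed within 2-fold over the light course, and its IAA libraries lay above all others. Its log2 change was 1.94 against 24 h (SE 0.090, limma adjusted p = 2.26e-08) and 1.54 against 0 h (SE 0.090, limma adjusted p = 1.81e-08).

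OsbZIP1 (LOC_Os01g07880, minus strand, 3811149 to 3812069), a rice homolog of the Arabidopsis light-signalling factor HY5, belonged to the same kind. It was at 11.3 and 9.91 FPKM with IAA, against 3.71 and 2.45 FPKM at 24 h. The libraries at 0 h were at 5.58 and 5.70 FPKM, so that the IAA libraries lay above the dark level instead of returning to it (log2 change 0.80 against 0 h, SE 0.133, limma adjusted p = 1.93e-04, below 2-fold, and just past 2-fold with median-of-ratios scaling). GLK2 (LOC_Os01g13740, minus strand, 7686884 to 7693987) was at 28.0 and 28.3 FPKM with IAA, against 36.3 and 32.5 FPKM at 24 h and 20.9 and 20.2 FPKM at 0 h. Its log2 change of -0.28 against 24 h (SE 0.073, limma adjusted p = 6.96e-03) was well under 2-fold and towards the dark level. With ABA, GLK2 was at 32.5 and 29.3 FPKM, and the log2 change of IAA against ABA was -0.13 (SE 0.073, limma adjusted p = 1.48e-01).

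The gene called lower was LOC_Os01g37590 (plus strand, 21038806 to 21041083). Its level was 3.95 and 3.84 FPKM with IAA, against 11.5 and 9.74 FPKM at 24 h, and 15.1 and 13.8 FPKM at 0 h. With ABA it was at 5.29 and 5.72 FPKM, so that both sprayed groups lay below both 24 h libraries. The log2 change was -1.24 against 24 h (SE 0.093, limma adjusted p = 8.93e-07) and -0.41 against ABA (SE 0.093, limma adjusted p = 2.55e-03). With IAA, as with ABA, the transcript thus lay further from its dark level than at 24 h. The log2 change of ABA against 24 h was -0.83 (SE 0.093, limma adjusted p = 3.53e-05), below 2-fold. An effect of the spray itself cannot be told apart from that of IAA here. A second gene, LOC_Os01g08460 (minus strand, 4167511 to 4171559), was at 8.63 and 10.4 FPKM with IAA, against 19.7 and 19.4 FPKM at 24 h and 2.13 and 1.67 FPKM at 0 h. Its log2 change was -0.97 (SE 0.115, limma adjusted p = 2.83e-05), just under 2-fold, and with median-of-ratios scaling it was called lower (-1.13). Both IAA libraries lay between the dark and the 24 h levels, as did both ABA libraries, at 12.1 and 11.6 FPKM. The log2 change of ABA against 24 h was -0.68 (SE 0.115, limma adjusted p = 1.12e-03), below 2-fold. That of IAA against ABA was -0.29 (SE 0.115, limma adjusted p = 4.61e-02), and -0.57 with median-of-ratios scaling. Both sprayed groups thus lay below both 24 h libraries, and the part of the spray in this fall was not tested.

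**Figure D1:**
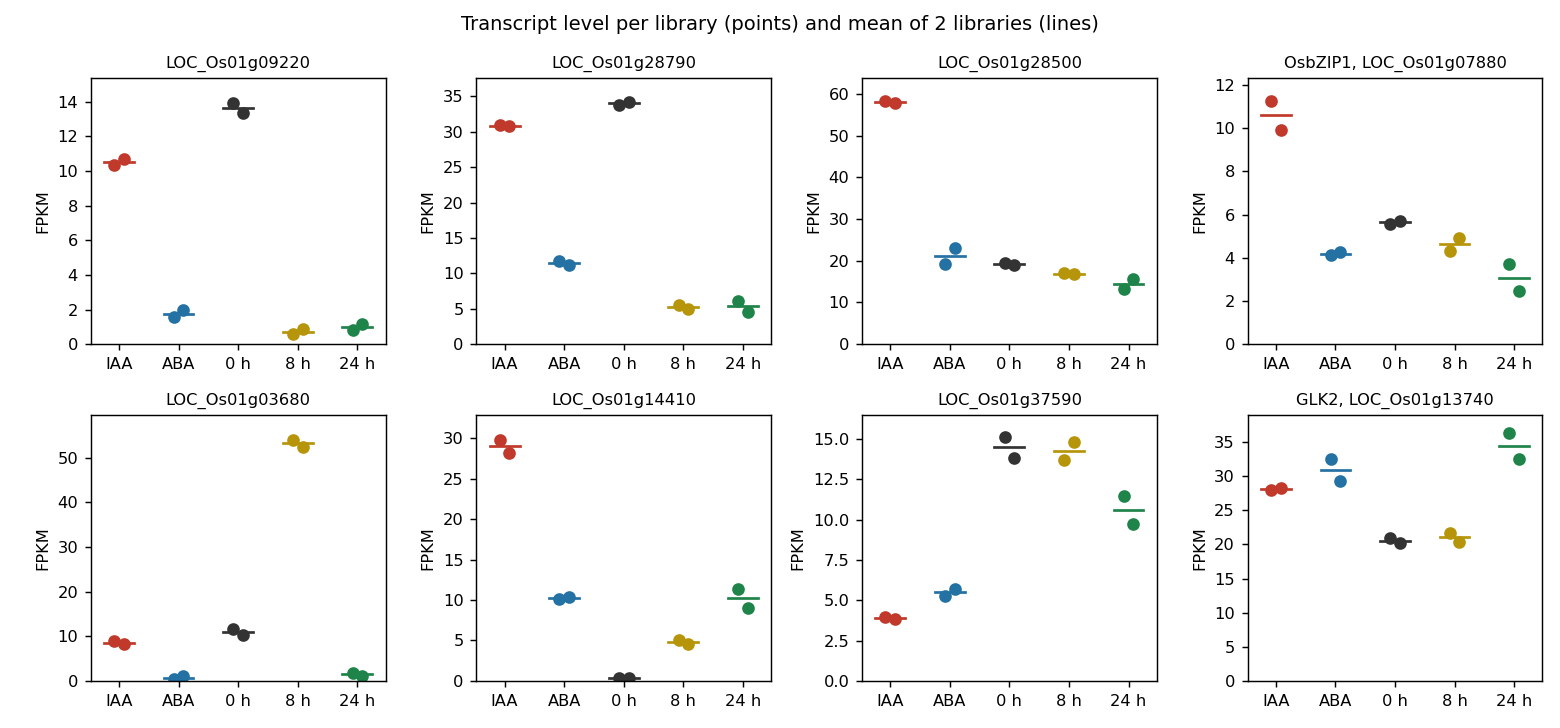
Transcript level in FPKM (y axis, from 0) in each library (points) and the mean of the 2 libraries of a condition (lines) for 8 genes, with IAA and ABA left of the light course from 0 to 24 h. LOC_Os01g09220 and LOC_Os01g28790 are high at 0 h and with IAA, LOC_Os01g28500 and OsbZIP1 are highest with IAA, and LOC_Os01g37590 is low with both hormones.

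As a group, the 51 raised genes were lower in the light than in the dark. Their median log2(FPKM + 1) was 3.88 and 3.79 in the IAA libraries, against 2.59 and 2.38 at 24 h, and it was 2.90 and 2.81 with ABA. In the light course it was 3.50 and 3.50 at 0 h and 2.83 and 2.79 at 8 h. The medians of all tested genes were 3.40 and 3.40 with IAA, against 3.25 and 3.19 at 24 h and 3.51 and 3.47 at 0 h. Relative to all genes, the raised genes were thus at 0.48 and 0.39 with IAA, against -0.67 and -0.81 at 24 h, and they were at -0.25 and -0.36 with ABA, -0.01 and 0.02 at 0 h, and -0.55 and -0.57 at 8 h. They were chosen by the gap between IAA and 24 h, which by itself places the IAA libraries high and the 24 h libraries low. Only the levels at 0 h, at 8 h and with ABA are free of that choice. Single genes spread widely around the median, with log2 changes of IAA against 0 h from -3.06 to 4.46. In 29 of the 51 genes both IAA libraries lay above all other 8 libraries, which held for 126 of the 1092 tested genes (11.5%). The choice favours high values with IAA, so a larger share among the 51 can come from it and is not a separate result.

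**Figure D2:**
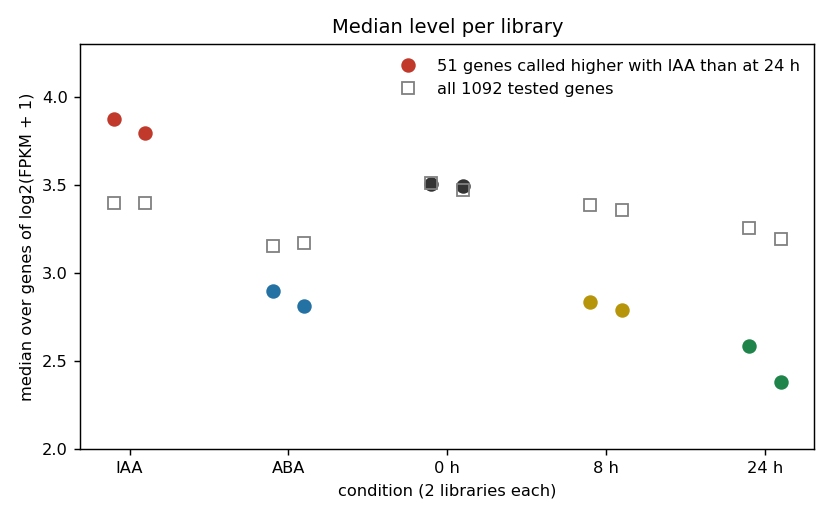
Median over genes of log2(FPKM + 1) in each library, for the 51 genes called higher with IAA than at 24 h (filled circles) and for all 1092 tested genes (open squares). The raised genes sit at the median of all genes at 0 h, below it at 8 h, 24 h and with ABA, and above it with IAA.

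Gene length was a further property shared by the raised genes. Their median length from start to end was 1386 bp, whereas it was 3591.5 bp over all tested genes. The tested genes were split by length into 4 classes of 273 genes. In the shortest class (243 to 2108 bp) 39 genes were called higher (14.3%), in the next 10 (3.66%), and in each of the classes of longer genes 1 (0.366%). The class medians followed the same order, and the median log2 change of IAA against 24 h was 0.37 in the shortest class and -0.02 in the longest. Across the 1092 genes, which are not independent replicates, Spearman's rho between length and change was -0.36. The replicates at 24 h differed in the same manner, with rho = -0.35 between length and the difference of replicate 1 minus replicate 2, while this value was -0.20 for the IAA replicates and between -0.08 and -0.03 for the other conditions. Against ABA the rho of the IAA change was -0.16. When the trend over length was removed from each library, an alternative chosen after the data were seen, 22 of the 51 genes were still called higher (2.01%) and 10 genes were called lower (0.916%). Against ABA, 21 genes were then higher (1.92%) and 19 lower (1.74%). LOC_Os01g09220 (2.22), LOC_Os01g28790 (1.86), LOC_Os01g28500 (1.43), OsbZIP1 (1.04) and LOC_Os01g37590 (-1.50) kept their calls on the log2 scale. The part of the length trend in the other calls was not tested.

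**Figure D3:**
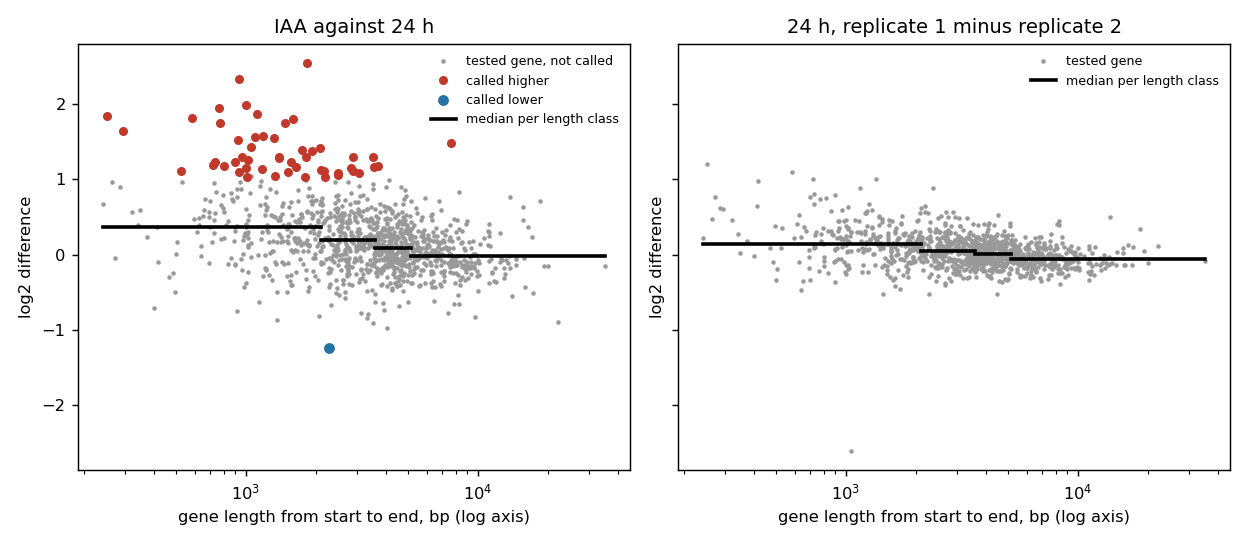
Log2 difference per tested gene (y axis) against gene length in bp (log x axis) for IAA against 24 h (left, called genes coloured) and for 24 h replicate 1 minus replicate 2 (right), with the median of each length class as a black line. In both panels the short genes lie higher than the long ones.

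Next, the IAA libraries were compared with the ABA libraries, which were sprayed with the same solvent for the same time. This comparison uses the same IAA libraries as that with 24 h. With IAA, 53 genes were called higher (4.85%) and 10 lower (0.916%) than with ABA. The median of all tested genes was 0.21 higher with IAA, and with median-of-ratios scaling the counts were 27 higher (2.47%) and 18 lower (1.65%), and the share of higher genes among the calls was 60.0%, compared with 84.1% as deposited. For the 51 genes raised against 24 h, the median log2 change of IAA against ABA was 1.16 (from -0.50 to 2.50), and that of ABA against 24 h was 0.12 (from -1.39 to 1.72). Only 1 of the 51 was lower with IAA than with ABA. It was LOC_Os01g15270, at 379.2 and 327.9 FPKM with IAA, against 492.3 and 506.0 FPKM with ABA and 154.7 and 146.8 FPKM at 24 h. Of all 1092 tested genes, 816 (74.7%) were higher with IAA than with ABA. The 51 genes were chosen partly by high values in the same IAA libraries. Part of their gap to ABA can come from that choice, so it is not a separate result. Over all tested genes, the median of ABA against 24 h was -0.10. The raised genes thus also lay somewhat higher with ABA than at 24 h relative to the typical gene. They were chosen partly by low values in the same 24 h libraries, so such a shift can come from that choice and is not a separate result. The median of ABA against 24 h was also 0.05 in the shortest length class as a whole, against -0.18 in the longest.

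The largest difference was that of LOC_Os01g37000 (plus strand, 20640981 to 20643886), at 8.14 and 7.33 FPKM with IAA, against 0.688 and 0.402 FPKM with ABA. At 24 h it was at 2.96 and 3.12 FPKM, so that the hormone groups lay on opposite sides of the 24 h libraries. The log2 change was 2.50 against ABA (SE 0.109, limma adjusted p = 1.55e-08). Its dark level of 33.8 and 29.4 FPKM was far above all of these (log2 change of IAA against 0 h -1.90, SE 0.109, limma adjusted p = 1.55e-08), so IAA moved it only part of the way. Against 24 h its log2 change of 1.11 became 0.97 after median-of-ratios scaling and 0.92 without the length trend, both below 2-fold.

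LOC_Os01g03680 (plus strand, 1515837 to 1516832) peaked at 8 h, at 54.0 and 52.5 FPKM, and was at 8.86 and 8.33 FPKM with IAA, against 0.515 and 1.0 FPKM with ABA, 1.84 and 1.07 FPKM at 24 h, and 11.6 and 10.3 FPKM at 0 h. The log2 change of IAA was 2.46 against ABA (SE 0.152, limma adjusted p = 2.16e-07) and 1.98 against 24 h (SE 0.152, limma adjusted p = 1.0e-06). The IAA libraries were thus near the dark level and well below the peak at 8 h.

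The largest falls against ABA were those of a pair of nearby loci, LOC_Os01g03310 (minus strand, 1338229 to 1339139) and LOC_Os01g03320 (minus strand, 1341319 to 1342277). LOC_Os01g03310 was at 10.7 and 10.6 FPKM with IAA, against 49.5 and 50.3 FPKM with ABA and 20.2 and 17.2 FPKM at 24 h. Its log2 change was -2.13 against ABA (SE 0.089, limma adjusted p = 1.55e-08) and -0.75 against 24 h (SE 0.089, limma adjusted p = 2.78e-05), and the change against 24 h was -1.23 without the length trend. LOC_Os01g03320 was at 0.790 and 1.51 FPKM with IAA, against 7.92 and 7.41 FPKM with ABA and 1.53 and 1.35 FPKM at 24 h, and its log2 change was -2.03 against ABA (SE 0.170, limma adjusted p = 1.74e-06). In LOC_Os01g03320 the IAA and 24 h libraries overlapped, whereas both ABA libraries stood above them.

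To see whether IAA moved genes back towards their dark level, the changes with IAA were read within the genes called in the light course. Since IAA against 24 h and 24 h against 0 h share the 24 h libraries, 2 pairs of comparisons with no library in common were used. In the first pair, the genes were classed by 8 h against 0 h and the change was that of IAA against 24 h. At 8 h, 42 genes were called lower (3.85%) and 46 higher (4.21%) than at 0 h. Of the 42 lower genes, 13 were called higher with IAA (31.0%, against 4.67% of all tested genes). Their median log2 change with IAA was 0.46, against 0.13 over all tested genes, and 31 of the 42 were above that overall median. The 42 genes had a median length of 2072 bp, against 3591.5 bp over all tested genes. In the shortest length class 14.3% were called higher with IAA, so the share of all tested genes is not matched for length. Of the 46 genes called higher at 8 h, 3 were called higher with IAA (6.52%), their median was 0.05, and 19 were above the overall median. Their middle range, from the lower to the upper quartile, was -0.09 to 0.39, nearly that of the genes not called at 8 h (-0.10 to 0.39). The difference between the class median and that of all genes was 0.32 for the genes lower at 8 h and -0.08 for those higher at 8 h, the second of which was 0.0065 with no filter on low values.

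In the second pair, the genes were classed by 24 h against 0 h and the change was that of IAA against ABA. Such a change can come from either hormone, and the ABA libraries lay farther from the dark than those at 24 h (28.8 to 29.4 against 26.8 to 28.7 in Euclidean distance), so that a return with IAA and a departure with ABA cannot be told apart in this pair. Of the 93 genes called lower at 24 h than at 0 h, 19 were higher with IAA than with ABA (20.4%, against 4.85% of all tested genes) and 2 were lower. Their median was 0.45, against 0.21 over all tested genes, and 61 of the 93 were above the overall median. The 93 genes were short too, with a median length of 1670 bp. The 76 genes called higher at 24 h had a median of 0.04, and 20 of them were above the overall median. Relative to all genes, the class medians were 0.24 and -0.18. The medians of genes lowered by light were thus above that of all genes in both pairs, whereas genes raised by light lay lower in the second pair and showed no clear shift in the first. The pairs use the same 0 h and the same IAA libraries and are not independent of each other. Across all 1092 genes, which are not independent replicates, Spearman's rho between the light change and the IAA change was -0.21 in the first pair and -0.33 in the second. The light changes also followed gene length, with rho = 0.11 at 8 h and 0.19 at 24 h against 0 h. For the IAA changes of the same pairs the rho with length was -0.36 and -0.16. The part of length in the values of -0.21 and -0.33 was not tested.

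The class medians relative to all genes kept their sign after median-of-ratios scaling with the classes called again (0.31 and -0.12 in the first pair, 0.48 and -0.19 in the second) and without the length trend (0.30 and -0.08, and 0.32 and -0.18). Without 24 h replicate 1 the value of the genes lower at 8 h was 0.48 in place of 0.32. The counts of called genes were less steady, at 5 of 25 genes in the first pair and 9 of 31 in the second after scaling (which placed 6.41% of all genes higher at 8 h and 2.29% lower), and at 3 of 26 and 9 of 34 without the length trend. The genes called higher with IAA over all tested genes were then 3.3% and 2.47% after scaling, and 2.01% and 1.92% without the length trend.

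**Figure D4:**
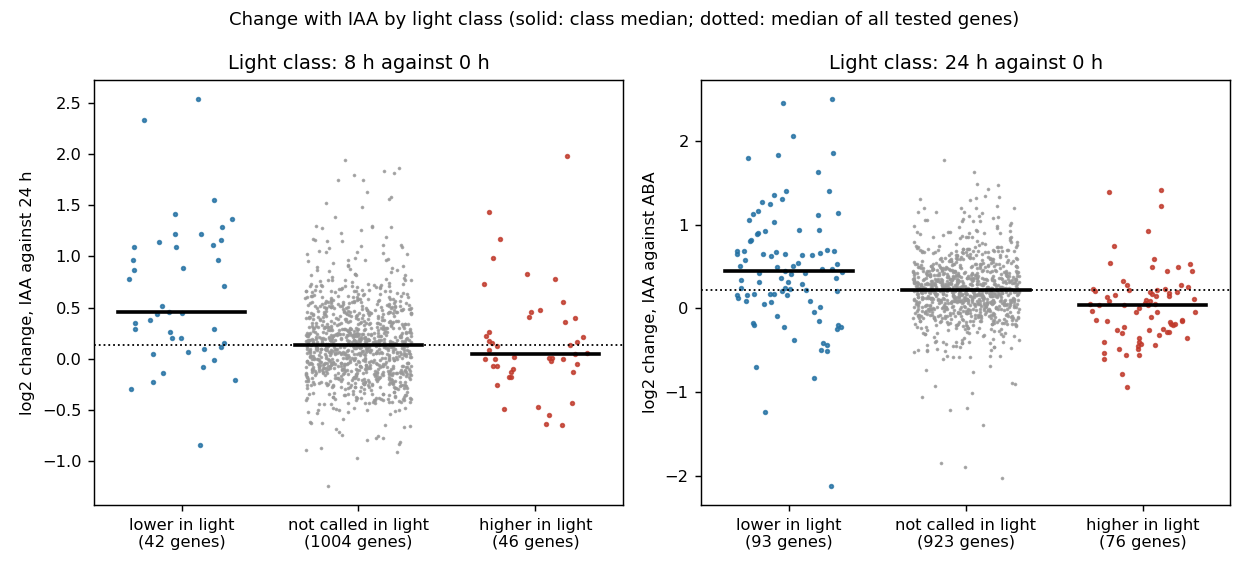
Log2 change with IAA (y axis) of each tested gene by its class in the light course, for IAA against 24 h by 8 h against 0 h (left) and for IAA against ABA by 24 h against 0 h (right). The class medians (solid lines) of genes lower in light, 0.46 and 0.45, lie above the median of all tested genes (dotted lines, 0.13 and 0.21), and those of genes higher in light, 0.05 and 0.04, below it.

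With IAA, 3 genes rose although light had already raised them at 8 h. Besides LOC_Os01g03680, these were LOC_Os01g14410 (plus strand, 8061858 to 8062908) and LOC_Os01g16980 (minus strand, 9711615 to 9712419), named after their values were seen. LOC_Os01g14410 was at 29.8 and 28.2 FPKM with IAA, against 11.3 and 9.06 FPKM at 24 h, 5.02 and 4.52 FPKM at 8 h, and 0.403 and 0.330 FPKM at 0 h. IAA thus moved this transcript further from the dark level, with a log2 change of 1.43 against 24 h (SE 0.104, limma adjusted p = 7.78e-07). LOC_Os01g16980 was at 7.76 and 7.43 FPKM with IAA, against 2.79 and 2.86 FPKM at 24 h, 6.58 and 5.88 FPKM at 8 h, and 2.29 and 2.35 FPKM at 0 h. Its log2 change was 1.17 against 24 h (SE 0.094, limma adjusted p = 1.21e-06). Without the length trend, the log2 changes of LOC_Os01g14410 and LOC_Os01g16980 against 24 h were 0.97 and 0.66, below 2-fold.

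Over all tested genes, the IAA libraries remained far from the dark libraries. Compared directly with 0 h, 75 genes were higher with IAA (6.87%) and 40 were lower (3.66%), while the 24 h libraries had 76 genes above (6.96%) and 93 below (8.52%) the dark ones, in comparisons that share the 0 h libraries. With median-of-ratios scaling these were 101 (9.25%) and 22 genes (2.01%) with IAA, and 105 (9.62%) and 31 genes (2.84%) at 24 h. The Euclidean distance to the dark libraries was 24.4 to 24.7 for the IAA libraries, against 26.8 to 28.7 for those at 24 h, and it was 28.8 to 29.4 for ABA and 21.1 to 21.4 for 8 h. After scaling the ranges were 24.2 to 24.5 for IAA, against 25.7 to 26.8 for 24 h, and 27.5 to 27.7 for ABA, so that both IAA libraries stayed nearer to the dark than both 24 h libraries. The 24 h replicates themselves differed, at 25.8 and 25.7 for replicate 1 and 26.8 and 26.7 for replicate 2. No distance is given without the length trend, and the part of the spray in this gap was not tested.

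**Figure D5:**
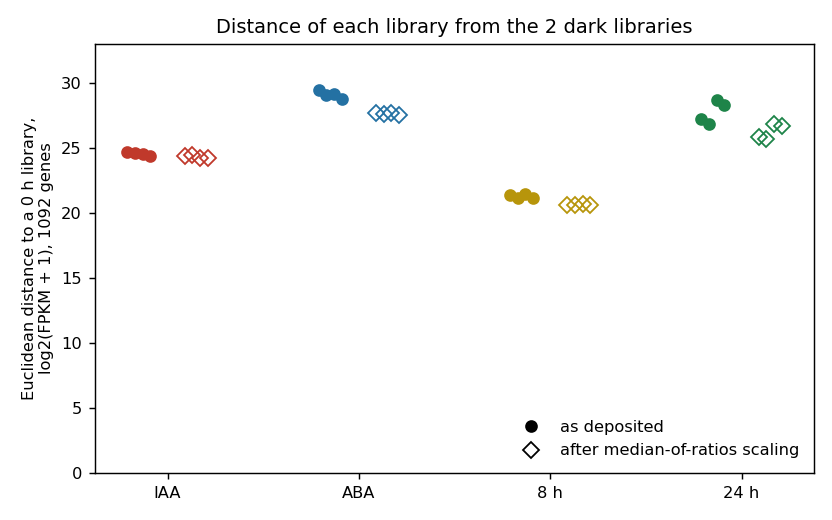
Euclidean distance of each library to each of the 2 libraries at 0 h, on log2(FPKM + 1) over 1092 genes, as deposited (filled circles) and after median-of-ratios scaling (open diamonds). The IAA libraries, at 24.4 to 24.7, lie nearer to the dark than those at 24 h, at 26.8 to 28.7, and farther than those at 8 h.

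Of the genes farthest from their dark level with IAA, LOC_Os01g14410 (log2 change 4.46 against 0 h) was among those raised against 24 h. The 2 genes farthest below the dark were not called against 24 h. LOC_Os01g24700 (minus strand, 13899523 to 13900729) was at 0.819 and 0.806 FPKM with IAA and at 0.998 and 0.661 FPKM at 24 h, against 32.7 and 34.1 FPKM at 0 h. The log2 change was -4.25 for IAA against 0 h (SE 0.120, limma adjusted p = 2.74e-11) and -0.01 for IAA against 24 h (SE 0.120, limma adjusted p = 9.68e-01). LOC_Os01g12940 (minus strand, 7185483 to 7188038) was at 2.80 and 3.15 FPKM with IAA and at 2.87 and 1.71 FPKM at 24 h, against 55.8 and 52.4 FPKM at 0 h. Its IAA and 24 h libraries overlapped, although IAA was above ABA (0.980 and 0.705 FPKM; log2 change 1.11, SE 0.144, limma adjusted p = 5.03e-05, and 0.95 with median-of-ratios scaling, below 2-fold). The log2 change against 0 h was -3.79 (SE 0.144, limma adjusted p = 2.85e-10).

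Among the light-induced genes, LOC_Os01g21250 (minus strand, 11863920 to 11864332) stood highest above the dark with IAA, at 476.6 and 473.4 FPKM, against 462.2 and 295.5 FPKM at 24 h and 13.6 and 15.5 FPKM at 0 h. Its log2 change was 4.94 for IAA against 0 h (SE 0.158, limma adjusted p = 7.26e-11) and 0.36 for IAA against 24 h (SE 0.158, limma adjusted p = 7.58e-02). LOC_Os01g22980 (minus strand, 12914948 to 12919210) was at 35.7 and 35.0 FPKM with IAA, against 45.4 and 53.6 FPKM at 24 h and 0.556 and 0.759 FPKM at 0 h. Both IAA libraries lay below both 24 h libraries, with a log2 change of -0.47 (SE 0.089, limma adjusted p = 1.03e-03), below 2-fold, and remained far above the dark libraries. The ABA libraries were lower still, at 29.9 and 31.2 FPKM (log2 change of ABA against 24 h -0.67, SE 0.089, limma adjusted p = 1.68e-04), so that the fall was not particular to IAA.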

How the data were processed

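RNA-seq was made from whole seedlings, and polyA RNA was sequenced with 2 biological replicates per condition, as stated in the methods. The authors mapped the reads with Hisat2 to the rice reference genome and deposited FPKM values per gene, under the locus IDs of the MSU7.0 gene models. The reads are of an indica cultivar and the gene models of a japonica one, and the methods give no use of strand, so overlapping and antisense genes are uncertain. A figure of the study labels equal values TPM. Of the table, 2282 complete rows were used. Reads could not be recovered from the values, so the depth is unknown and no count test was run.

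Log2(FPKM + 1) of the 1092 genes averaging 1 FPKM or more was fitted with limma 3.58.1 (trended variance), with the 10 libraries in 1 model of 5 conditions. Calls needed a 2-fold change and an adjusted p (Benjamini-Hochberg) under 0.01. Median-of-ratios scaling, other pseudocounts and filters, 2 conditions only, a replicate block and leaving out each library were alternatives. Removing the length trend, and keeping the classes as deposited after scaling, were added after the data were seen. The fit was tested on simulated data. Members and lists were chosen with earlier results of these data known. Some loci were listed in the plan by ID, and no list was read from these alone. The function lists planned by words in gene names and products could not be applied, since 0 of 2282 IDs matched the RefSeq table. For the same reason, the genes named were cut to the 2 largest rises and 2 largest falls of a comparison, with OsbZIP1 and GLK2, whose IDs are from the study (the first is written there without the LOC prefix, the second is a label in a figure), and LOC_Os01g28500, LOC_Os01g14410 and LOC_Os01g16980, chosen after their values were seen.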

Additional observations from a re-analysis of the deposited data

How the results depend on the processing

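Replicate numbers did not pair the libraries (correlations of deviations -0.065 to 0.109), and with the replicate block the counts were unchanged, at 51 higher and 1 lower for IAA against 24 h, 53 and 10 against ABA, and 75 and 40 against 0 h. Leaving out each library in turn gave 42 to 68 genes higher and 1 to 2 lower with IAA than at 24 h, the 2 being without IAA replicate 2. It gave 50 to 53 higher and 9 to 10 lower against ABA, and 74 to 78 higher and 36 to 41 lower against 0 h. Relative to all genes, the medians were then 0.27 to 0.48 and -0.09 to -0.05 for genes lower and higher at 8 h, with 12 to 14 of the lower ones called, and 0.20 to 0.28 and -0.22 to -0.16 for genes lower and higher at 24 h, with 16 to 24 called. Where these runs left 1 library in a condition, it was assumed to vary like the others. With a pseudocount of 0.1, 3 genes were lower than at 24 h, 80 higher than with ABA and 63 lower than at 0 h, and 23 and 35 genes lowered by light were called higher in the first and second pair. With no filter on low values, the medians relative to all genes were 0.0065 for genes higher at 8 h, and 0.37 and -0.057 for genes lower and higher at 24 h. With a minimum of 5 FPKM, 32 genes were higher than with ABA, and genes higher at 8 h were at -0.12. With median-of-ratios scaling, 6 genes were lower than at 24 h, 27 higher and 18 lower than with ABA, and 22 lower than at 0 h, genes higher at 8 h were at -0.12 with 5 of those lower at 8 h called, and genes lower at 24 h were at 0.48 with 9 called. With the classes as deposited, 12 were called and genes higher at 24 h were at -0.21. Without the length trend, 22 genes were higher and 10 lower than at 24 h, 21 higher and 19 lower than with ABA, 3 and 9 genes lowered by light were called, and genes lower at 24 h were at 0.32. The cause of these moves was not tested.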

Other observations

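Of the 51 genes raised by IAA, 26 lay on the plus strand (51.0%, against 49.5% of all tested genes), and 10 formed 5 pairs of neighbouring tested genes. No value over all tested genes is given for such pairs, so no clustering is read from them. The median of the mean level of the 51 genes was 10.1 FPKM, against 9.58 FPKM for all tested genes. Of the 1190 genes under the minimum level, 491 were listed at 0 in all 10 libraries. A further 30 were above 0 in both IAA libraries and listed at 0 in both 24 h libraries, and 17 showed the opposite.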
